A study of Homo sapiens with 4 samples.

Results

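The miR-200 family was described in small RNA libraries of HEK293T, an established line of human embryonic kidney cells. The family comprises 5 microRNA (miRNA) genes, found by symbol from the Ensembl identifiers among the 7062 small RNA features of the count tables. MIR200B, MIR200A and MIR429 form a cluster on chromosome 1, and MIR200C and MIR141 form a cluster on chromosome 12. Cells had been transiently transfected with 1.5 µg per well of a plasmid for RPB1, the largest and catalytic subunit of RNA polymerase II (Pol II). The C-terminal domain of this RPB1 held 52 heptad repeats, either of the wild-type kind (52X WT) or with threonine 4 replaced by alanine (52X T4A). Both groups were then selected for 72 h in 2.5 µg/ml α-amanitin, a toxin directed against Pol II, which per the labels eliminated untransfected cells by that time. Each group had 2 libraries that the labels present as biological replicates. No library of untransfected or untreated cells was analysed here, and the tables list small RNAs only, so the RPB1 constructs could not be checked in these data.

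miRNAs are cut from hairpins in longer Pol II transcripts and then guide silencing complexes to messenger RNAs, mainly through the seed at bases 2 to 8. The miR-200 family is best known from epithelial cells, where it represses ZEB1 and ZEB2, transcription factors that in turn repress epithelial genes and the miR-200 clusters themselves. High levels of the family go with an epithelial state and low levels with a mesenchymal one.

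The mature sequences are shown because the family divides by seed and not by cluster. All are from RefSeq (GRCh38.p14), written 5′ to 3′ with the seed in capitals. The first 3 share the seed AAUACUG and the last pair shares AACACUG.
miR-200b-3p: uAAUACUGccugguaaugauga
miR-200c-3p: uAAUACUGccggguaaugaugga
miR-429: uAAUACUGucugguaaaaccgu
miR-200a-3p: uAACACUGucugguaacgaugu
miR-141-3p: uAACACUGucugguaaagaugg

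Each seed group has members in both clusters. Counted from 1 at the 5′ end, the only seed difference between miR-141-3p and miR-200b-3p was C4U, and the same substitution separated the other pairs drawn from the 2 seed groups. Over 22 compared positions, miR-200b-3p and miR-200c-3p differed at 2 (U11G and A22G), and miR-141-3p and miR-200a-3p also at 2 (A17C and G22U). By contrast, miR-429 differed from miR-200c-3p at 7 positions. Among the 2545 mature miRNAs of the RefSeq table, the seed AAUACUG occurred in 3 and AACACUG in 2, which were the members themselves. Among the opposite arms, miR-200b-5p (cAUCUUACugggcagcauugga) and miR-200a-5p (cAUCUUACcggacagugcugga) had the seed AUCUUAC, and miR-200c-5p (cGUCUUACccagcaguguuugg) had GUCUUAC. Counts were deposited per hairpin, so the arms cannot be told apart in the values that follow. Reads of such close relatives may have been placed at more than 1 locus, since the settings for reads that match several loci were not given in the sources used here.

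The positions are those of the deposited tables (hg38), and for 5 of 5 members they equal the RefSeq positions of GRCh38.p14. All lie on the plus strand. MIR200B (ENSG00000207730.3) spans bases 1167104 to 1167198 of chromosome 1, MIR200A (ENSG00000207607.3) bases 1167863 to 1167952 and MIR429 (ENSG00000198976.1) bases 1169005 to 1169087. The 3 hairpins lie within 1984 bases, inside the long noncoding RNA gene MIR200BHG of RefSeq. On chromosome 12, MIR200C (ENSG00000207713.3) spans bases 6963699 to 6963766 and MIR141 (ENSG00000207708.1) bases 6964097 to 6964191, with 330 bases between them. Both lie in MIR200CHG, in an intron of it on the same strand in GENCODE v44lift37. The nearest protein-coding genes of RefSeq are TTLL10, 4792 bases after the chromosome 1 cluster, and PHB2, 1135 bases after the chromosome 12 cluster.

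The host gene promoters are shown because both carry the E-box letters CACCTG, the kind of site that ZEB1 and ZEB2 bind. The windows run from 250 bases before to 50 bases after the RefSeq start (GRCh38.p14, plus strand), with the boxes in capitals. The first is chr1:1162627-1162926 and the second chr12:6962995-6963294.
MIR200BHG: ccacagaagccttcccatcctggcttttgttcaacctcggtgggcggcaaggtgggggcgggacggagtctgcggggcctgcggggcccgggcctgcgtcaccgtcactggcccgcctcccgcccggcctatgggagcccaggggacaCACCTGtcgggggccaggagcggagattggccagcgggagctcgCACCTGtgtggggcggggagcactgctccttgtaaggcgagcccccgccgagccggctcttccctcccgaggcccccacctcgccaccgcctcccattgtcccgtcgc
MIR200CHG: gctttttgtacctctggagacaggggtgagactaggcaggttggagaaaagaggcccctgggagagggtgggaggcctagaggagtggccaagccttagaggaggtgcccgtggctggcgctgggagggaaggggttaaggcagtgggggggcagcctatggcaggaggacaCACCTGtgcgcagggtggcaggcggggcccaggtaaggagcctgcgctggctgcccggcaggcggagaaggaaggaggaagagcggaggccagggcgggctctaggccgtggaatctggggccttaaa

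The search covered CACCTG and its reverse complement CAGGTG, which together are both strands of 1 motif. MIR200BHG held 2 boxes, starting 102 and 58 bases before the gene start, and MIR200CHG held 1, starting 78 bases before it. Of 35116 RefSeq promoters of this length, 20.6% held at least 1 box and 3.49% at least 2. A match describes letters only. ZEB1 and ZEB2, as protein-coding genes, are not among the small RNA features counted here.

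The libraries held 16180790 to 27370127 counts. Library 52X WT replicate 1 stood apart: over the tested features, the SD of its log2 difference was 0.789 from 52X WT replicate 2 and 0.869 from both 52X T4A libraries, whereas the SD was between 0.518 and 0.648 for the pairs without it. Values without this library are therefore given below. Levels in CPM are counts scaled to the normalized library sizes of edgeR, and p-values measure only the spread between these libraries.

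miR-200 miRNAs were detected in all 4 libraries but were scarce. The 5 members together took 489 and 607 reads of the 52X WT libraries and 922 and 1731 reads of the 52X T4A libraries. The family's part of all miRNA reads was 0.00475% and 0.00432% in the wild-type libraries, and 0.00804% and 0.0084% in the mutant ones. The label "epithelial" therefore rests on what the family is known for and not on high levels in these cells. In bulk RNA, fewer cells of a kind and less RNA per cell cannot be told apart.

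Levels were compared between members per length, as CPM per kilobase of hairpin. MIR200C was highest, with 443 ± 21.9 for 52X T4A and 280 ± 40.7 for 52X WT (each a mean of 2 libraries ± SD, as in all such pairs below). MIR200B followed with 192 ± 24.8 and 102 ± 5.36, and MIR200A with 62.9 ± 21.3 and 29.8 ± 8.77 CPM per kilobase. MIR141 was at 20.3 ± 3.33 and 15.2 ± 6.19, and MIR429 was lowest at 7.24 ± 0.552 and 0.733 ± 0.131 CPM per kilobase. The order was the same in the 4 libraries, and within each group no member's libraries overlapped those of its neighbour in the order. Among 616 tested miRNA features, 68.2% had a lower mean level per kilobase than MIR200C, 59.7% than MIR200B, 44% than MIR200A and 26.5% than MIR141. The most abundant miRNA of each cluster carried the seed AAUACUG, but level did not follow the seed throughout, since MIR429 has that seed too and was below both members with AACACUG.

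**Figure D1:**
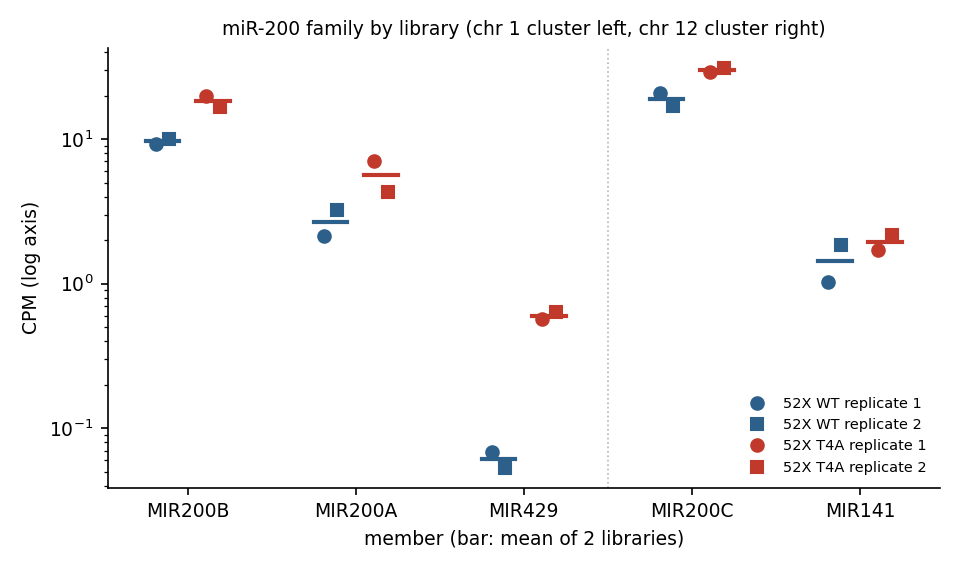
CPM of each member on a log axis, with 1 point per library and a bar at the mean of the 2 libraries of a group (red, 52X T4A; blue, 52X WT). The 52X T4A points lie above the 52X WT points for 4 of the 5 members, and for MIR141 the groups overlap.

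The question addressed next was whether levels of the family differed when threonine 4 of the heptads was replaced. All 5 members had higher mean levels in the T4A libraries, but no member passed the test. A call required an edgeR false discovery rate (FDR) below 0.05 together with more than a 1.5-fold difference, and 0 of the 4 tested members met it, against 0.135% of the 1480 features tested. Without adjustment, 2 of these 4 members (MIR200B and MIR200A) had p below 0.05, against 3.99% of all tested features higher in 52X T4A. DESeq2 called 0 of the 3 members to which it gave an adjusted p-value, leaving MIR141 without one. CPM values of the groups were fully separated for 3 of the 4 tested members, all higher in 52X T4A, against 18.9% of tested features. The median log2 fold change of the tested members was 0.79, beside −0.05 over all tested features, and 4 of 4 were above 0, as were 46.1% of all tested features. These 4 members lie in 2 clusters and are close in sequence, so they are not 4 independent observations.

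In the chromosome 1 cluster, MIR200B is the most abundant gene and carries the seed AAUACUG. The wild-type libraries gave it 136 and 189 reads and the T4A libraries 315 and 523. On the CPM scale, 52X WT stood at 9.32 and 10, and 52X T4A at 19.9 and 16.6. Both 52X T4A libraries were therefore above both 52X WT libraries, with replicates close to each other. In log2 units the change was 0.91 with a standard error (SE) of 0.32, corresponding to 1.88-fold, which edgeR did not call (FDR 0.395). Without 52X WT replicate 1 it was 0.76.

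MIR200A, which carries the other seed, received 31 and 61 reads from 52X WT and 111 and 136 reads from 52X T4A. Scaled, this was 2.12 and 3.24 CPM for the wild type against 7.01 and 4.31 CPM for the mutant. The groups did not overlap, although the replicates of each group differed more than those of MIR200B. The log2 fold change was 1.05 ± 0.4 (SE) at an edgeR FDR of 0.421. It depended on the libraries of both groups. Without 52X T4A replicate 1 the log2 fold change was 0.66 (edgeR FDR 0.938), and without 52X T4A replicate 2 it was 1.39 (edgeR FDR 0.781). Without 52X WT replicate 1 it was 0.68, and without 52X WT replicate 2 it was 1.40 and called (edgeR FDR 0.0309). That last fit called 13.9% of its 1570 tested features with a single 52X WT library, which is assumed to vary like the 52X T4A pair. Across alternatives the FDR of MIR200A spanned 0.0309 to 0.938.

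MIR429, the last hairpin of the cluster, was barely detected in 52X WT, with 1 read in each library, and reached 9 and 20 reads in 52X T4A. It did not pass the filter on low counts and was not tested with the other members. The scaled levels, 0.0685 and 0.0531 CPM for 52X WT against 0.569 and 0.633 CPM for 52X T4A, did not overlap. Pooled within groups, 29 counts stood against 2, a ratio of 10.2 after scaling with an exact 95% interval of 2.59 to 88.4 that covers counting error only. When no filter was applied, MIR429 was called at 3.24 ± 0.88 (log2, SE; edgeR FDR 0.0338) in a fit that called 0.763% of 3803 features. A fitted change at such counts depends on the small count that edgeR adds. The 3 leave-one-out fits that kept MIR429 did so only through its 52X T4A reads, so they are no further test. Its log2 fold change in them was between 3.04 and 3.30.

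In the chromosome 12 cluster, MIR200C was the most abundant member of the family. It took 306 and 321 reads of the wild-type libraries and 460 and 984 of the T4A libraries. In CPM, 52X WT measured 21 and 17.1 and 52X T4A measured 29.1 and 31.2, again with no overlap between groups. The log2 fold change was 0.66 ± 0.31 (SE), or 1.59-fold, and edgeR gave an FDR of 0.467, with an unadjusted value of 0.0569. Without 52X WT replicate 1 it was 0.73.

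MIR141 took 15 and 35 reads in 52X WT against 27 and 68 reads in 52X T4A. The wild-type values of 1.03 and 1.86 CPM overlapped the mutant values of 1.71 and 2.15 CPM. The log2 fold change was 0.41 ± 0.43 (SE), smaller than its own error, at an edgeR FDR of 0.729. Without 52X WT replicate 1 it was −0.01, so the sign of MIR141 rested on that library.

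**Figure D2:**
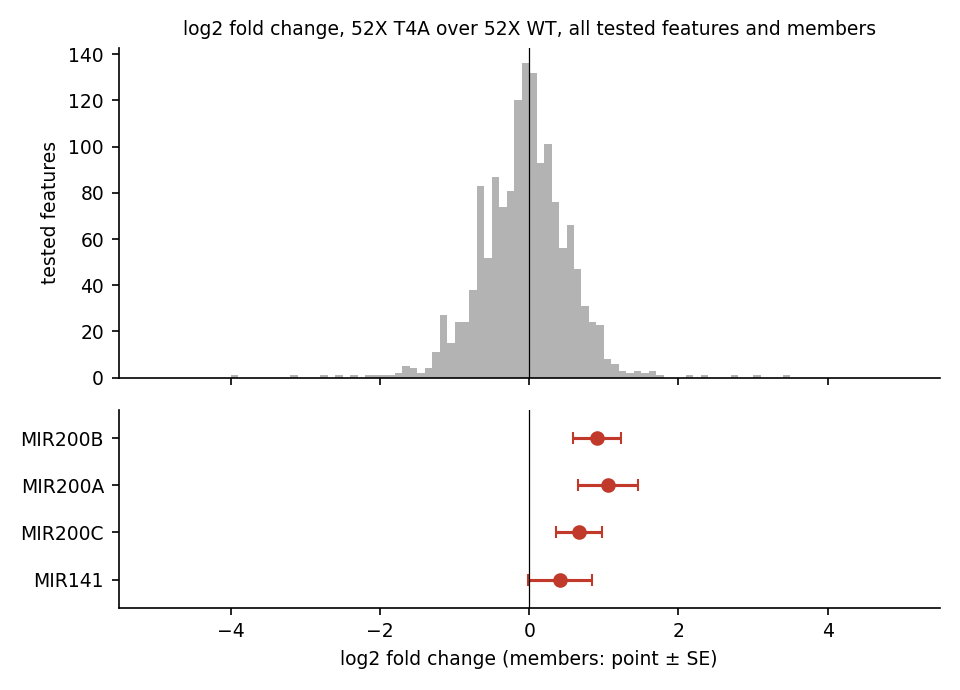
Log2 fold change of 52X T4A over 52X WT for all 1480 tested features (upper panel, number of features per 0.1 on the log2 scale) and for the 4 tested members with their SE (lower panel). Members lie between 0.41 and 1.05. The part of features with a lower value runs from 81.3% for MIR141 to 98.2% for MIR200A.

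Of all tested features, 96.4% had a lower log2 fold change than MIR200B, 98.2% than MIR200A, 91.5% than MIR200C and 81.3% than MIR141. The tagwise biological coefficient of variation of edgeR was between 24.7% and 27.1% for the tested members, with a median of 25.4% over all tested features. It lay near that median whether the replicates of a member were close or not. For MIR200B it was 24.8%, at log2 ratios of replicate 1 over replicate 2 of 0.26 (mutant) and −0.11 (wild type). For MIR200A it was 27.1%, at ratios of 0.70 (mutant) and −0.61 (wild type). The coefficient therefore cannot show whether the members' own variation between libraries was ordinary.

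Summed over the 5 members, the wild-type libraries held 33.5 and 32.2 CPM and the T4A libraries 58.3 and 54.8 CPM. On a log scale, replicates of the sum were closer to each other than those of any single member. The ratio of the group means was 1.72, a log2 difference of 0.78. An exact two-sided permutation test over libraries gave p = 0.333, the smallest that 2 against 2 libraries allow. Such a design cannot reach 0.05. The chromosome 1 cluster summed to 24.5 ± 4.23 CPM in 52X T4A and 12.4 ± 1.29 in 52X WT, and the chromosome 12 cluster to 32 ± 1.8 and 20.5 ± 2.18 CPM. By seed, the miRNA genes with AAUACUG summed to 48.9 ± 0.828 and 28.8 ± 2.27 CPM, and those with AACACUG to 7.59 ± 1.6 and 4.13 ± 1.38 CPM. In each of these 4 sums, as in the sum of all members, the groups did not overlap and the exact permutation p was 0.333.

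The make-up of the family differed between libraries by as much as between groups. The chromosome 12 cluster contributed 52.8% of family counts (exact Clopper-Pearson 95% interval 49.5% to 56.1%) in 52X T4A replicate 1 and 60.8% (58.4% to 63.1%) in 52X T4A replicate 2. In 52X WT it contributed 65.6% (61.2% to 69.8%) in replicate 1 and 58.6% (54.6% to 62.6%) in replicate 2. The group means of 56.8% ± 5.62 and 62.1% ± 4.95 overlapped in their libraries (exact two-sided permutation p = 0.667). Since the smallest p of this test is 0.333, it could not have detected a different change of the 2 clusters. The log2 difference of the summed levels, 52X T4A over 52X WT, was 0.98 for chromosome 1 and 0.65 for chromosome 12. Genes with the seed AAUACUG held 87.4% ± 4.53 of wild-type and 86.6% ± 2.25 of T4A family counts (exact two-sided permutation p = 1).

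Within each cluster, the share of the leading hairpin differed between groups by less than the larger SD. MIR200C supplied 94% ± 0.65 of the pair with MIR141 in 52X T4A and 92.7% ± 3.65 in 52X WT (exact permutation p = 1). MIR200B supplied 78.1% ± 4 of the chromosome 1 counts of 52X WT libraries and 74.7% ± 3.26 of those of 52X T4A (exact permutation p = 0.667). The intervals above cover counting error within single libraries, and the SDs come from 2 libraries a group. Neither shows that the balance was equal.

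**Figure D3:**
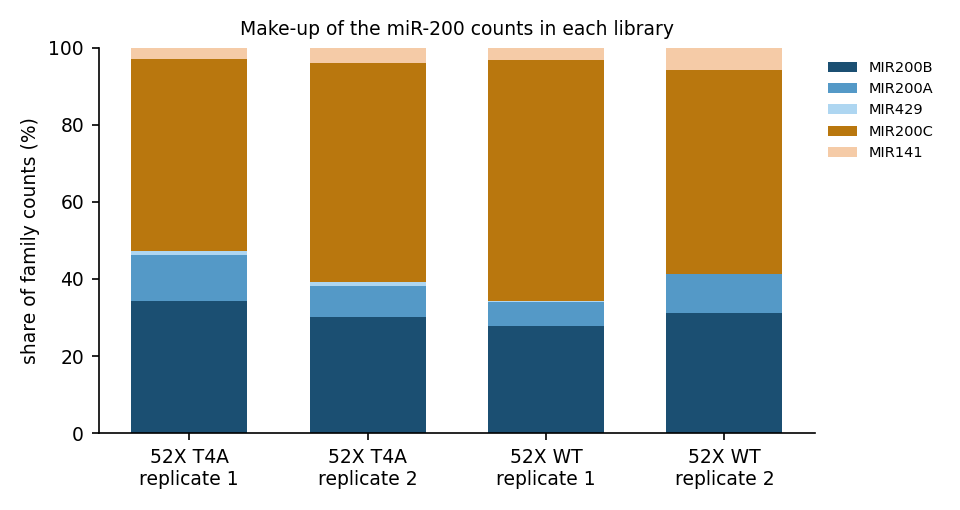
Share of the family's counts taken by each member in each library, in percent (blue shades, chromosome 1 cluster; brown shades, chromosome 12 cluster). MIR200C is the largest block in every library, and the chromosome 12 share runs from 52.8% to 65.6% with the groups overlapping.

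Only 2 other small RNA genes of the tables lie within 50 kb of the chromosome 12 cluster, and none was listed within that distance of the chromosome 1 cluster. SCARNA12, a small Cajal body RNA 3145 bases after MIR141 on the minus strand, measured 18.9 and 17.4 CPM for 52X WT and 22.8 and 20.9 CPM for 52X T4A. Its log2 fold change of 0.27 ± 0.3 (SE) did not pass (edgeR FDR 0.755). RNU7-1, the U7 small nuclear RNA used in histone messenger RNA processing, had a log2 fold change of −0.38 ± 0.34 (SE; edgeR FDR 0.668).

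The features closest in pattern to each cluster were found by the distance between centred log2 CPM profiles over the 4 libraries, using the 753 features that averaged 100 counts or more. The profile of a cluster was the mean of its 2 tested members. For chromosome 1 they were the U2 small nuclear RNA copies RNU2-14P, RNU2-36P and RNU2-37P, at distances of 0.0354, 0.137 and 0.196 on the log2 scale, where the median feature was at 1.22. These U2 copies carry pseudogene symbols. Their sequences were not compared here, and their reads may be shared. For chromosome 12 they were MIR641, MIR192 and MIR152, at distances of 0.179, 0.193 and 0.23 against a median of 0.853. The profiles of the 2 clusters were 0.647 apart, which is below both medians. The named features were picked as the nearest of 753, so their smaller distances do not show that the clusters were unlike each other. With 4 libraries this describes likeness only.

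Other miRNAs known from epithelial cells were split in direction. Their list held 12 genes, all tested, of which 0 were called, 6 had a log2 fold change above 0 and the median was 0.03, beside −0.05 over all features. MIR182 and MIR183, neighbours in a cluster expressed in epithelia and sensory organs, were the most abundant. MIR182 measured 12759 and 12848 CPM for 52X WT and 19884 and 14599 CPM for 52X T4A, a log2 difference of 0.43 ± 0.21 (SE). MIR183 had 0.20 ± 0.21. Neither passed (edgeR FDR 0.467 and 0.729). Per length, MIR182 averaged 116393 CPM per kilobase in 52X WT against 280 for MIR200C. MIR192, a kidney and gut miRNA, measured 876 and 951 CPM for 52X WT and 1325 and 1313 CPM for 52X T4A. Its log2 fold change was 0.53 ± 0.2 (SE), the only one of the list at an unadjusted p-value below 0.05 (0.0272; edgeR FDR 0.421).

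Of the 11 miRNAs of mesenchymal cells and fibroblasts, 10 were tested, 0 were called, 5 were above 0 and the median log2 fold change was 0.09. In that list 3 had an unadjusted p-value below 0.05, all with lower values in 52X T4A, as had 6.28% of all tested features. MIR21, abundant in many cultured cells, measured 9147 and 8520 CPM for 52X WT and 5726 and 6165 CPM for 52X T4A, a log2 fold change of −0.57 ± 0.19 (SE). MIR221 and MIR222, which come from 1 cluster and repress the cell cycle inhibitor p27, had −0.62 ± 0.21 and −0.60 ± 0.24 (SE). For these 3 the edgeR FDR was 0.367, 0.395 and 0.421. MIR10B, the most abundant of the list, had −0.17 ± 0.18 (SE; FDR 0.729). The direction of the list was thus mixed, with the MIR199 copies at 0.38 to 0.56. MIR199A1 and MIR199A2 had identical counts and MIR199B similar ones, so these 3 values are not independent. They are among the 5 above 0, and the median of the list leans on them.

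A list of 15 miRNA genes typical of blood, liver, muscle or brain differed by gene. Summed over the list, 52X WT held 44.1 and 42.1 CPM and 52X T4A 105 and 92.5 CPM, and each gene had at least 1 read in some library. Most of the sum came from the muscle miRNA genes MIR1-1 and MIR1-2, which share a mature sequence and whose counts are not independent. Without them, a step chosen after the values were seen, the other 13 genes summed to 14 and 9.4 CPM for 52X WT and 11.1 and 12.9 CPM for 52X T4A, and the groups overlapped. That overlap rested on the 3 copies of the brain miRNA MIR124, whose near-identical counts entered the sum separately. MIR124-3 alone measured 4.18 and 2.23 CPM for 52X WT and 1.45 and 2.72 CPM for 52X T4A. The overlap is therefore no evidence that the remaining genes were alike between groups. Of the 9 tested genes 0 were called, 6 were above 0, against 46.1% of all tested features, and the median log2 fold change was 1.46. At an unadjusted p-value below 0.05, 5 were higher in 52X T4A, against 3.99% of all tested features, and 4 of these were copies of 2 muscle miRNAs. MIR133A1, MIR133A2, MIR150 and MIR142 had at most 10 reads in either 52X WT library. They passed the filter on low counts only through the 52X T4A libraries. Their part in these counts and in the median is therefore no evidence of a higher level. MIR1-1 measured 15.1 and 16.4 CPM for 52X WT and 46.6 and 39.9 CPM for 52X T4A, a log2 difference of 1.46 ± 0.3 (SE; edgeR FDR 0.186). MIR133A1 and MIR133A2 of muscle, with 2 or 3 reads per wild-type library against 10 and 29 in the T4A libraries, had 2.36 ± 0.62 and 2.10 ± 0.61 (SE). MIR150 of lymphocytes had 1.73 ± 0.56 (SE). The 3 copies of the brain miRNA were below 0, at −0.53 for MIR124-1, −0.58 for MIR124-2 and −0.57 for MIR124-3. None of these was called, with an edgeR FDR from 0.186 to 0.650. Among the 6 genes too low to be tested, the muscle miRNA MIR206 had 30 and 6 reads in 52X T4A against 1 and 1 in 52X WT, and MIR133B had at most 2 reads and 0 in both wild-type libraries. The liver miRNA MIR122 and the blood miRNAs MIR451A, MIR144 and MIR223 had at most 15 counts in any library, with MIR144 at 0 in 1 library of each group. The muscle miRNAs MIR1-1 and MIR1-2 and the miR-200 family thus both had higher mean levels in 52X T4A, without a call for either. The part of other cells or of carried-over RNA in the miR-200 values was not tested.

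**Figure D4:**
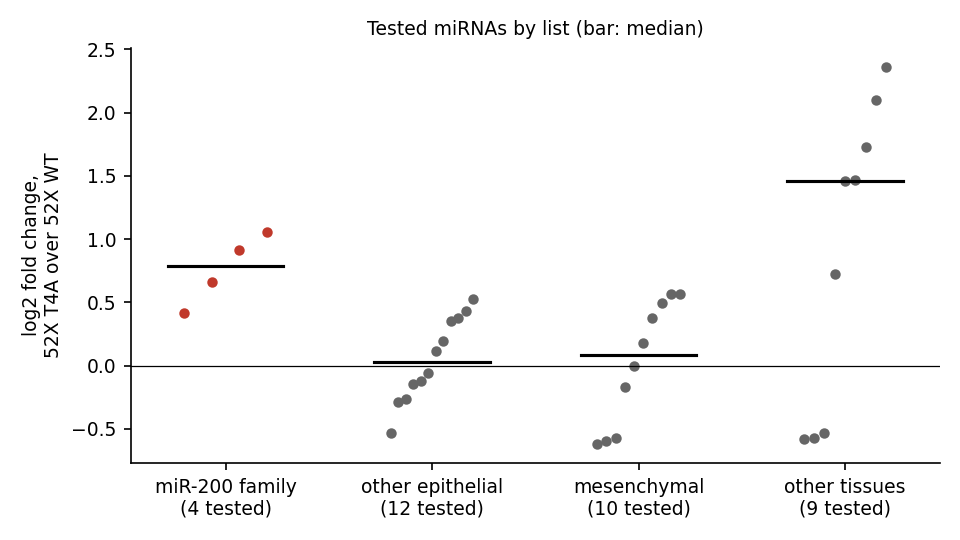
Log2 fold change of 52X T4A over 52X WT for the tested genes of the miR-200 family and of the 3 comparison lists, 1 point per gene with a bar at the median. Medians are 0.79 for the family, 0.03 for other epithelial miRNAs, 0.09 for mesenchymal miRNAs and 1.46 for miRNAs of other tissues. In the last list MIR133A1, MIR133A2, MIR150 and MIR142 were tested only because of their 52X T4A reads. Copies such as those of MIR199, MIR1 and MIR124 are separate points, though their counts are not independent.

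The values of the tested members under other processing are shown in the plot by setting. MIR200B, MIR200A and MIR200C stayed above 0 in all 14 alternatives, between 0.76 and 1.08, 0.66 and 1.40, and 0.52 and 0.85 respectively.

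**Figure D5:**
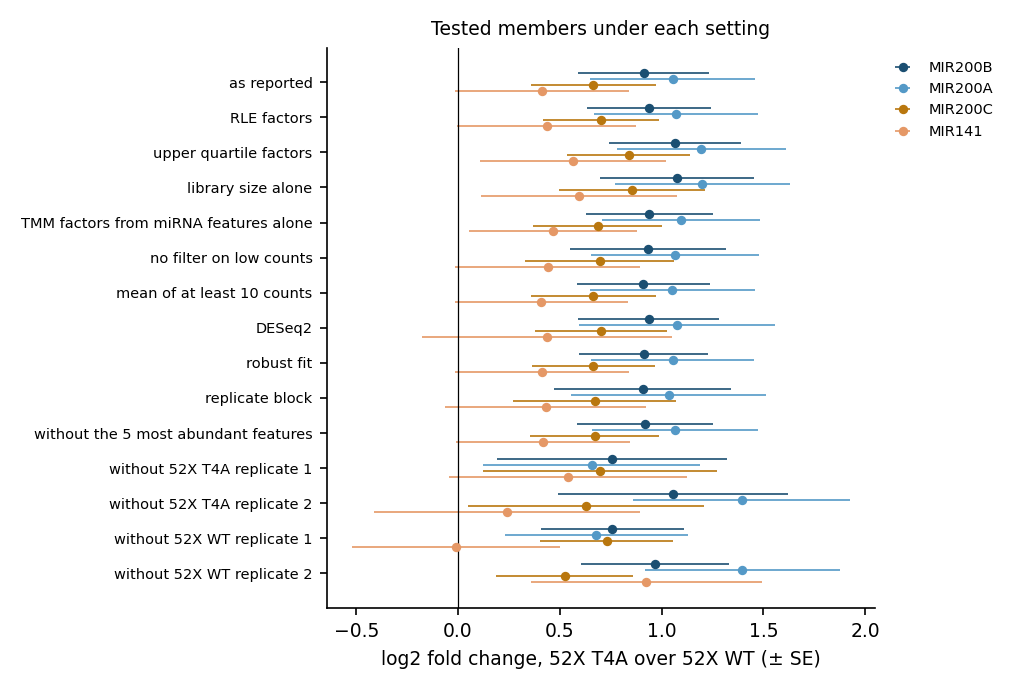
Log2 fold change with SE of the 4 tested members under the reported setting and 14 alternatives. The values of MIR200B, MIR200A and MIR200C lie right of 0 throughout, and MIR141 reaches −0.01 without 52X WT replicate 1.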

How the data were processed

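Small RNA libraries (single-end, 50 bp) of 2 52X T4A and 2 52X WT cultures were analysed as raw read counts per feature, deposited by the authors as 1 table per library with no normalization. The submitters' processing notes name hg38, cutadapt v4.6, Bowtie2 v2.3.5.1 and featureCounts v1.5.0. Settings for multi-mapped reads and strand were not given in the sources used here. Such settings could spread reads over related hairpins. Symbols came from GENCODE v44lift37 through 5579 identifiers, then from RefSeq genes at the same position (GRCh38.p14) in 908 cases, and 575 features stayed unnamed.

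Counts were filtered with filterByExpr (minimum count 10), scaled with TMM factors and tested with edgeR v4.0.16 (quasi-likelihood F test, R v4.3.3) over the whole table, with Benjamini-Hochberg adjustment. SE is the log2 fold change divided by the square root of F. A call needed an FDR below 0.05 and more than a 1.5-fold difference. The fit was tested on simulated data. Log2 CPM used a prior count of 1. Groups were also compared by DESeq2 v1.42.0 and with other factors, filters and libraries. Intervals and floors cover counting error only.

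The members and lists were chosen with earlier results of these data known. All 5 members were named. Listed miRNAs were named if tested and either at an unadjusted p below 0.05 or among the 3 most abundant of their list, with the 3 features nearest to each cluster. MIR124-1, MIR124-2, MIR142, MIR206, MIR133B, MIR451A, MIR144, MIR223, MIR122, SCARNA12, RNU7-1 and the MIR199 copies were chosen after their values were seen.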

Additional observations from a re-analysis of the deposited data

How the results depend on the processing

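Of 56 values of the 4 tested members under 14 alternatives, 54 kept their direction and their side of the threshold (MIR141 had no adjusted p-value in DESeq2). The exceptions were MIR200A without 52X WT replicate 2 (1.40, called) and MIR141 without 52X WT replicate 1 (−0.011, reversed). The number of members called, 0 as reported, was 1 without a filter on low counts (MIR429) and ran from 0 to 1 when single libraries were left out. With a library left out, the log2 fold change ran from 0.76 to 1.06 for MIR200B, 0.66 to 1.40 for MIR200A, 0.52 to 0.73 for MIR200C and −0.011 to 0.92 for MIR141. The log2 difference of the summed level was 0.95 with upper quartile factors and 0.96 with library size alone, against 0.78, and under these factors the median of all tested features moved from −0.05 to 0.13 and 0.14. The cause was not tested for the other changes.

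Features called over the whole table numbered 2 as reported, 9 with library size alone, 0 with factors from miRNAs alone (138 at an unadjusted p-value below 0.05), 29 without a filter and 29 with DESeq2. They were 6 and 4 without 52X T4A replicate 1 and 2, and 35 and 218 without 52X WT replicate 1 and 2, fits in which the lone library is assumed to vary like the others. Adding the replicate block gave 18 calls, but 0 members were called, with log2 fold changes of 0.91, 1.04, 0.67 and 0.43 for MIR200B, MIR200A, MIR200C and MIR141. No label ties libraries of the same number to each other. Their deviations from the group means correlated at 0.0946 over 1480 features. With so few libraries this cannot decide whether they were paired. At 1 to 20 counts, depth limits what can be said of MIR429.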
